A study of Mus musculus with 2 samples.

Results

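Barcodes rich in mitochondrial RNA, called mito-rich barcodes here, were those with at least 1000 UMIs and 500 genes in which mitochondrially encoded genes took more than 2% and at most 20% of the UMIs. A UMI is a molecular tag that counts an RNA molecule once. Of the 17695 barcodes that passed both minima, 974 were mito-rich, 97 of 9549 in the control library and 877 of 8146 in the WMI library. The mitochondrial share chose the barcodes, so its values are given as a description.

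The 2 libraries came from the cerebral cortex of C57BL/6 mice, 1 from control mice and 1 from mice with white matter injury (WMI). The labels give ligation of the right common carotid artery on day 7 with 1 h of hypoxia, collection of the cortex on day 14 at 2 weeks of age, and a suspension of nuclei. The same surgery text is given for both libraries, and the control label adds the ipsilateral cortex. The study's methods describe dissociated cells, earlier surgery and collection and a longer hypoxia, and the files do not settle which holds. The deposited tables held 10288 control barcodes with 66470806 UMIs and 8354 WMI barcodes with 60568639 UMIs. With 1 library per condition no difference between conditions could be tested, and every interval below is an exact 95% interval that covers counting error only. Where 0 barcodes were found, the upper limit given stands for 3 barcodes. The study's methods describe several replicates per group, and how these relate to the single library of each group is not given in the sources used here. Barcodes of 1 library share their source and are not replicates. Of the barcode sequences, 36 were found in both libraries, and 0 of these were mito-rich in both. The libraries also differed in transcripts of the sex chromosomes. At 800 non-mitochondrial UMIs, 31.1% (28.1 to 34.3%) of mito-rich and 31.4% (30.4 to 32.5%) of other WMI barcodes held X inactivation transcripts only, and 12.2% (10.1 to 14.6%) and 12.9% (12.2 to 13.7%) held Y-linked transcripts only. Of the control barcodes, 0 mito-rich and 4 others held X inactivation transcripts only, against 27 and 2132 with Y-linked transcripts only.

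The mitochondrial genome encodes 2 ribosomal RNAs, a set of transfer RNAs and subunits of the respiratory chain, and its transcripts stay inside the organelle. In droplet libraries the mitochondrial share is therefore read as a measure of how much cytoplasm a droplet held or of how damaged a cell was, and it also varies with the cell type. Nuclei carry few such transcripts, apart from those that adhere to them or float free in the suspension. Ribosomal protein mRNAs and the mRNAs of ferritin, the iron storage protein, are abundant in cytoplasm, whereas long noncoding RNAs such as Malat1 are kept in the nucleus.

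Mito-rich barcodes made up 1.02% (0.825 to 1.24%) of the control barcodes and 10.8% (10.1 to 11.5%) of the WMI barcodes, a ratio of 10.6 (5.76 with a lower limit of 5%), so that 90.0% of all mito-rich barcodes were WMI barcodes. The whole distribution lay higher in the WMI library, where the median barcode had a mitochondrial share of 0.462%, against 0.0631% in the control library. Within the mito-rich barcodes the medians were close, at 3.61% in the control and 3.02% in the WMI library. The lowest and highest shares were 2.03% and 16.1% in the control and 2.00% and 18.3% in the WMI library. Only 1 barcode in each library lay above the upper limit, at 21.5% and 25.7%. There was no gap at the lower limit. Of the WMI barcodes, 144 lay just outside it, above 1.8% and up to 2%, and 133 just inside it, up to 2.2%. For the control library there were 8 and 7.

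**Figure D1:**
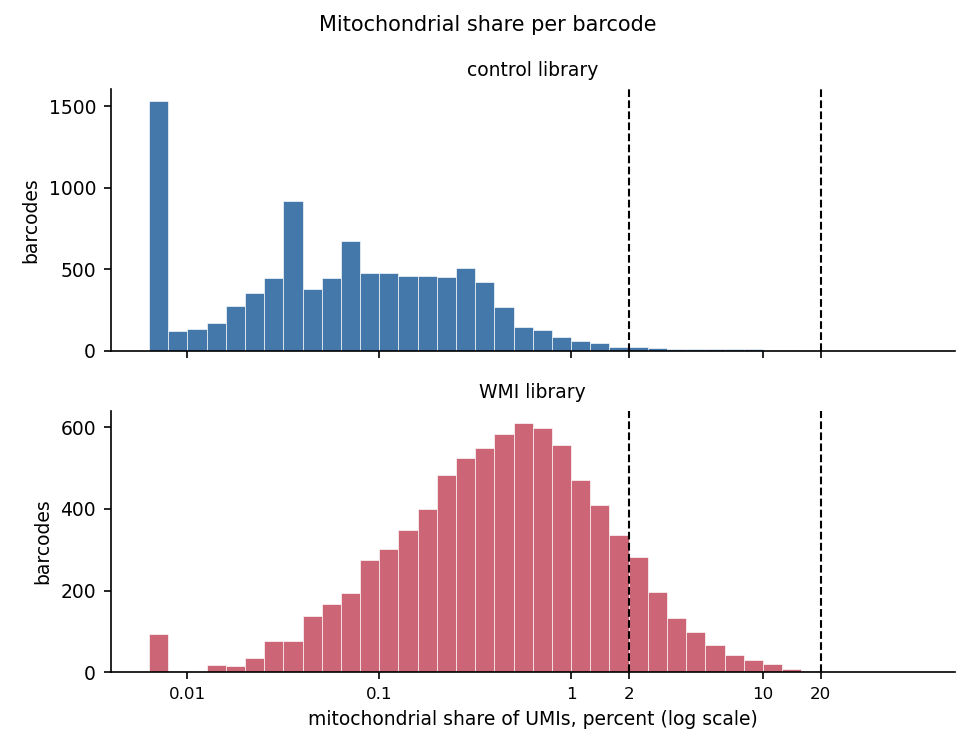
Number of barcodes (y axis) by mitochondrial share of UMIs in percent (x axis, log scale) in each library, with dashed lines at the limits of 2% and 20%. The leftmost bar holds all barcodes at or below its range, those without a mitochondrial UMI included. The WMI distribution is centred near its median of 0.462% and its upper tail crosses the lower limit, with 877 barcodes between the lines against 97 in the control library.

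Mito-rich barcodes were shallower than the others of their library. Total UMIs are the denominator of the share that chose the barcodes, so a lower depth may be partly built into the rule. The depths are therefore given as a description. The median was 3795 UMIs and 1920 genes in the control library, against 4746 UMIs and 2303 genes in barcodes at or below 2%. In the WMI library it was 2985 UMIs and 1741 genes, against 5709.5 UMIs and 2587 genes. The mito-rich median was thus 0.8 of that of the other control barcodes and 0.523 of that of the other WMI barcodes. The control difference depended on the limit, since with a lower limit of 1% the ratio was 1.01. At an equal depth of 800 non-mitochondrial UMIs, the mito-rich barcodes held slightly more genes, with medians of 584 against 561 in the control and 614 against 583 in the WMI library. The lower depth was found in each WMI class of marker genes described below, from 2768 against 3107 UMIs for the myeloid class to 3085 against 7985 UMIs for the excitatory class.

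The mitochondrial transcripts themselves were not taken up in equal parts. mt-Cytb, a subunit of complex III, was the largest at 22.8% of the mitochondrial UMIs of mito-rich control barcodes and 29.7% of those of mito-rich WMI barcodes. In the other barcodes it took 26.4% and 31.0%. The large ribosomal RNA mt-Rnr2 took 14.8% (14.3 to 15.3%) in mito-rich and 11.8% (11.6 to 12%) in other control barcodes, and 13.7% (13.5 to 13.9%) and 9.26% (9.15 to 9.37%) in the WMI library. The small ribosomal RNA mt-Rnr1 followed the same order, with 9.13% against 7.34% in the control and 5.61% against 4.51% in the WMI library. Both ribosomal RNAs thus held a larger part of the mitochondrial UMIs in mito-rich barcodes of each library. mt-Co1, a catalytic subunit of complex IV, took 4.79% (4.50 to 5.10%) against 4.50% (4.36 to 4.65%) in the control library, where the intervals overlap, and 3.81% against 3.53% in the WMI library. mt-Nd5, a subunit of complex I, took 3.14% against 2.77% in the control library but 1.26% against 1.32% in the WMI library, where the intervals overlap. Without the ribosomal RNAs in the share, 0.764% of control and 7.23% of WMI barcodes would have been mito-rich.

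Nuclear copies of mitochondrial genes are listed as separate genes and were not part of the mitochondrial share. Gm29216, an unprocessed pseudogene at chr1:24615706-24616197 (GRCm38) next to 3 others, had 52 UMIs in mito-rich and 70 in other WMI barcodes, a log2 ratio of 3.69 (3.15 to 4.23). On the control side it had 9 and 29 UMIs, a log2 ratio of 5.52 (4.26 to 6.64). Whether such reads come from the nuclear copy or from the mitochondrial genome cannot be told apart in these counts.

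All levels that follow are counts per 1000000 non-mitochondrial UMIs (CPM), so that the mitochondrial share itself cannot lower them. A gene was compared when at least 10 UMIs were expected in the smaller of its sums had the levels been equal, and 2-fold was the limit for counting it. Control ratios of single genes under that minimum, such as Ftl1, Mt1, Mt2, Atf4 and Rplp0, are printed for their group and were not counted. Among WMI barcodes 949 of 13797 genes compared (6.88%) were at least 2-fold higher in mito-rich barcodes and 142 (1.03%) at least 2-fold lower, with a median log2 ratio over all genes of 0.22. Within the control library, where the mito-rich barcodes held 442331 non-mitochondrial UMIs against 3259770 in the WMI library, 106 of 5916 genes (1.79%) were higher and 98 (1.66%) lower, with a median of 0.05. Of the 5916 genes compared in both libraries, 17 were at least 2-fold higher in both, which is 16.0% of the 106 control and 14.9% of the 114 WMI genes that were higher among them. Another 5 were at least 2-fold lower in both. These shares are the background for the gene groups below, and nothing is read from a group beyond its own values.

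Ribosomal protein genes were the group with the broadest difference. Summed over 82 genes, their level in the WMI library was 7359 CPM in mito-rich and 1975 CPM in other barcodes, a log2 ratio of 1.90 (1.88 to 1.92). All 81 members compared were at least 2-fold higher, against the background of 6.88%, with a median log2 ratio of 1.88. In the control library the levels were 2258 and 1458 CPM, a log2 ratio of 0.63 (0.54 to 0.72). There 6 of the 17 members compared were at least 2-fold higher, against the background of 1.79%, and 16 of the 17 lay above 0. Both subunits had like values in the WMI library, at 1.86 for the large and 1.94 for the small subunit. Pan-myeloid markers, described below, were higher in the same WMI barcodes, with a summed level of 1515 against 593 CPM, and the ribosomal protein ratio was 1.77 without the barcodes that carried myeloid markers.

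Single ribosomal protein genes show the size of this difference. Rplp0, which encodes a protein of the ribosomal stalk, had a level of 78.2 CPM in mito-rich and 16.2 CPM in other WMI barcodes, a log2 ratio of 2.27 (2.07 to 2.47). Among control barcodes its levels were 18.1 and 9.39 CPM from only 8 and 614 UMIs, and the interval of its log2 ratio, -0.27 to 1.93, included 0. Rplp2, another stalk protein, was among the genes most clearly higher in both libraries, with log2 ratios of 1.33 (0.71 to 1.89) in the control and 1.88 (1.71 to 2.04) in the WMI library. Rps15 and Rpl37 also belonged to that set, at 1.18 and 1.28 in the control and 1.89 and 1.82 in the WMI library. Translation elongation factors, which act while the ribosome lengthens the protein chain, had a log2 ratio of 0.58 (0.32 to 0.82) in the control and 1.57 (1.51 to 1.64) in the WMI library.

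The difference was uneven among mito-rich barcodes. The median WMI barcode spent 0.456% of its non-mitochondrial UMIs on ribosomal protein genes when mito-rich and 0.203% otherwise, but the highest mito-rich barcode spent 12.8%. Of the mito-rich WMI barcodes, 108 (12.3%) spent more than 2%, and these held 45.1% of the group's UMIs in mito-rich barcodes. Among the other WMI barcodes 99 (1.36%) did so. Pan-myeloid or homeostatic microglia markers, described below, were carried by 40 of the 108 and by 178 of all 877 mito-rich WMI barcodes. For the control library the medians were 0.241% and 0.161%, and 0 barcodes of either set passed 2%. Counted as a mean over barcodes, the log2 ratio was 1.62 in the WMI and 0.27 in the control library.

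Ferritin had the largest summed ratio of any gene group in the WMI library. The levels of Ftl1 and Fth1 together, the light and heavy chains, were 660 CPM in mito-rich and 125 CPM in other barcodes, a log2 ratio of 2.40 (2.33 to 2.47). On the control side they were 113 and 64.5 CPM, from 50 and 4219 UMIs, a log2 ratio of 0.81 (0.38 to 1.21). Ftl1 was the gene with the highest ratio of all genes compared in the WMI library, mitochondrial genes left out, with levels of 364 and 45.8 CPM and a log2 ratio of 2.99 (2.89 to 3.09). Within the control library Ftl1 had 10 UMIs in mito-rich barcodes, a level of 22.6 against 11.6 CPM, and the interval of its log2 ratio of 0.96 ran from -0.11 to 1.84. A higher Ftl1 level among mito-rich control barcodes was therefore not detectable at this depth, and the difference between the libraries was not tested. Fth1 had log2 ratios of 1.90 (1.8 to 2.0) in the WMI and 0.77 (0.29 to 1.22) in the control library. Other iron genes, such as the iron regulatory protein gene Ireb2, differed less, with group log2 ratios of 0.54 (0.45 to 0.62) and 0.30 (0.04 to 0.55). The ferritin value depended on how barcodes were chosen. It was 1.68 in the WMI library when mt-Rnr1 and mt-Rnr2 were left out of the share, 1.74 with a lower limit of 1% and 3.03 with one of 5%.

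In the WMI library both groups had higher levels at higher mitochondrial shares below the limit as well. The ribosomal protein level was 1397 CPM in barcodes with a share of up to 0.1%, 3376 CPM between 1% and 2%, 5545 CPM between 2% and 3% and 11669 CPM between 5% and 10%. In the 32 WMI barcodes between 10% and 20% it was lower again, at 7853 CPM. Ferritin went from 83.9 to 1288 CPM and then to 652 CPM over the same range. Just outside and just inside the limit the WMI levels were alike, with 4506 and 4417 CPM for ribosomal protein genes and 383 and 328 CPM for ferritin. In the control library the ribosomal protein level went from 1237 CPM at the lowest shares to 2011 CPM between 0.1% and 0.5%, then to 1626 CPM between 1% and 2% and to 3765 CPM in the 8 barcodes above 10%. Control ferritin was 52.7 CPM at the lowest shares, 94.9 CPM between 0.1% and 0.5% and 78.1 CPM between 1% and 2%. In the 8 control barcodes just outside and the 7 just inside the limit, the levels were 1724 and 2652 CPM for ribosomal protein genes and 167 and 71.7 CPM for ferritin.

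**Figure D2:**
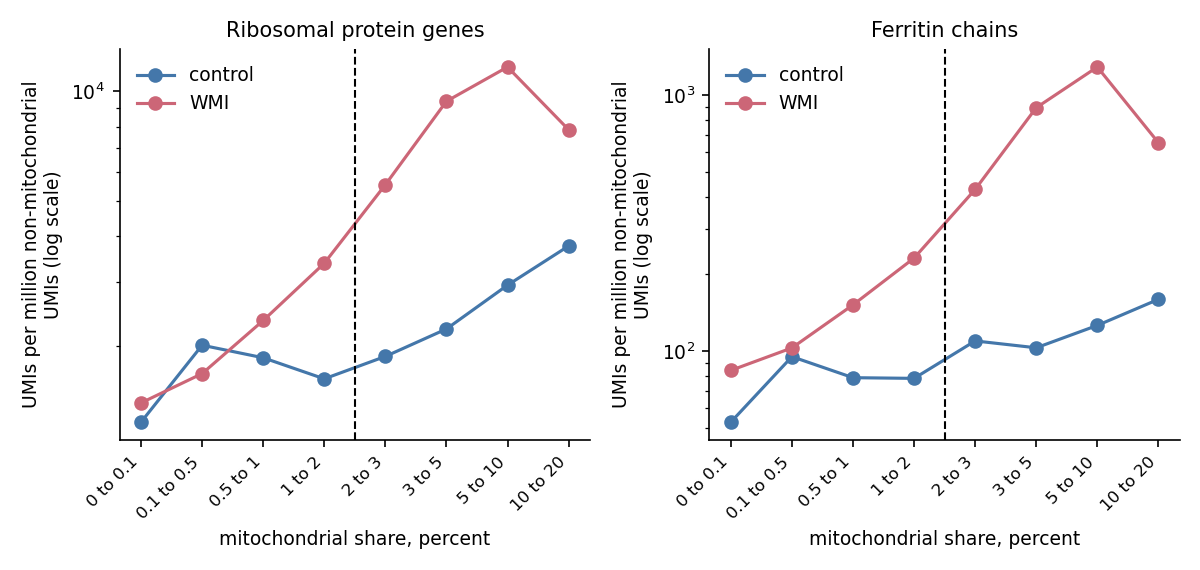
Summed level of ribosomal protein genes (left) and of the ferritin chains (right) in CPM of non-mitochondrial UMIs (y axis, log scale) in barcodes grouped by mitochondrial share in percent (x axis), with a dashed line at 2%. Each point is the sum over all barcodes of a group in 1 library, with no error bar. The WMI levels pass the line without a step, reach 11669 and 1288 CPM between 5% and 10%, and exceed the control levels in every group above 0.5%.

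Metallothioneins bind zinc and copper and are induced by metals and by stress. Their group level was 227 CPM in mito-rich and 67.4 CPM in other WMI barcodes, a log2 ratio of 1.75 (1.64 to 1.87). Among control barcodes it was 115 and 55.9 CPM, a log2 ratio of 1.04 (0.62 to 1.44). Mt1 had levels of 110 and 25.7 CPM in the WMI library, a log2 ratio of 2.10 (1.93 to 2.27), and of 43.0 and 14.1 CPM in the control library, a log2 ratio of 1.61 (0.87 to 2.26). Mt2 had 1.53 (1.18 to 1.87) in the WMI library, and in the control library only 3 UMIs in mito-rich barcodes and a log2 ratio of 0.79 (-1.50 to 2.35). Mt3, the form best known from brain, had 1.48 (1.29 to 1.65) and 0.79 (0.21 to 1.32).

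Mt1 and Mt2 lie next to each other and are the classic targets of the metal response element, so the bases just before their start sites are shown. The sequences are the 120 bases before the start in RefSeq (GRCm38.p6, plus strand), at chr8:94178969-94179088 for Mt1 and chr8:94172498-94172617 for Mt2. Capitals mark matches to the cores TGCACNC and TGCGCNC, searched on both strands.
Mt1: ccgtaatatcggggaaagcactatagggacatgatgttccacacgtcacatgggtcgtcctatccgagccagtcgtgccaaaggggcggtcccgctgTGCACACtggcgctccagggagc
Mt2: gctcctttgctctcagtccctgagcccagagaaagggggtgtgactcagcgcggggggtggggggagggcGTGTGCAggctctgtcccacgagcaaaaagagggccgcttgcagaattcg
Each holds 1 match, on the plus strand in Mt1 and on the minus strand in Mt2. Of the 32851 promoters in the table, 12.4% hold at least 1 match in a window of this length, so a match alone does not show a site. Whether these matches are used was not tested, and bases outside the windows were not searched.

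Heat shock proteins and chaperones, which refold damaged proteins, differed less than ribosomal protein genes, ferritin and metallothioneins in the WMI library. Their level was 725 CPM in mito-rich and 429 CPM in other WMI barcodes, a log2 ratio of 0.76 (0.70 to 0.82), and 597 and 407 CPM in the control library, 0.55 (0.37 to 0.73). Among WMI barcodes 3 of the 10 members compared were at least 2-fold higher, and all 10 lay above 0. For the control library 0 of 8 were, and all 8 lay above 0. Hspa8, a constitutive chaperone, had log2 ratios of 1.25 (1.04 to 1.46) in the WMI and 0.77 (0.13 to 1.33) in the control library. Hsp90aa1 had 0.69 (0.51 to 0.86) and 0.98 (0.55 to 1.37), and Hspa5, the chaperone of the endoplasmic reticulum, had 0.80 (0.65 to 0.95) and 0.43 (-0.16 to 0.97). The stress-inducible Hspa1a had 0 UMIs in the mito-rich barcodes of both libraries and 13 and 8 UMIs in the other WMI and control barcodes. Hspa1b had 1 UMI in mito-rich WMI and 0 in mito-rich control barcodes, and Hspb1 had 0 in both. Mito-rich barcodes held far fewer non-mitochondrial UMIs than the others, 3259770 against 56780662 in the WMI and 442331 against 65383828 in the control library. These low counts are therefore not read as a lower level.

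Other stress groups lay in the same range. The integrated stress response had log2 ratios of 0.66 (0.53 to 0.79) in the WMI and 0.51 (0.10 to 0.90) in the control library, with Atf4, its central transcription factor, at 0.69 (0.37 to 0.99) and 0.99 (0.20 to 1.67). Oxidative stress defence had 0.55 and 0.36, hypoxia response and glycolysis 0.70 and 0.56, and apoptosis genes and p53 targets 0.44 and 0.32, all with intervals above 0. Within the marker classes of the WMI library, described below, these ratios varied. Astrocyte barcodes had -0.46 (-0.95 to -0.02) for oxidative stress defence and -0.61 (-1.26 to -0.04) for apoptosis genes, from 41 and 24 UMIs. The apoptosis ratio was -0.01 (-0.23 to 0.20) in OPC or pre-OL barcodes and -0.05 (-0.24 to 0.13) in those carrying several classes, and the integrated stress response had -0.40 (-0.83 to 0.01) in myeloid barcodes. Immediate-early genes, which are switched on within minutes of a stimulus, had 0.46 (0.34 to 0.58) in the WMI library, while in the control library the value was -0.15 and the interval of -0.60 to 0.27 included 0. Hmox1, a heme-degrading enzyme and a marker of oxidative stress, had only 12 UMIs in mito-rich WMI barcodes and 1 in mito-rich control barcodes.

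Nuclear-encoded parts of the respiratory chain were also higher. Subunits of complexes III and IV had log2 ratios of 1.12 (1.08 to 1.17) in the WMI and 0.73 (0.60 to 0.87) in the control library, and 16 of 21 and 4 of 16 members compared were at least 2-fold higher. Complex I subunits had 0.75 and 0.39, with 15 of 37 and 0 of 8 members at least 2-fold higher, and ATP synthase subunits 0.90 and 0.39, with 8 of 17 and 0 of 12. Cox4i1, a subunit of complex IV, had 1.39 (1.25 to 1.54) and 1.26 (0.83 to 1.67), and Uqcr11, a subunit of complex III, had 1.46 (1.24 to 1.68) and 1.14 (0.51 to 1.71). Genes of mitochondrial import, dynamics and gene expression had group ratios of only 0.22 (0.16 to 0.27) and 0.16 (0.01 to 0.30).

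The summed level of transcripts known to stay in the nucleus was about equal in the WMI library, but most members were lower. Nuclear-retained long noncoding RNAs took 40092 CPM in mito-rich and 39938 CPM in other WMI barcodes, a log2 ratio of 0.01 with an interval that included 0, and the control ratio was 0.24 (0.22 to 0.26). Malat1 had log2 ratios of 0.17 (0.16 to 0.18) and 0.32 (0.30 to 0.34), whereas Meg3, a neuronal transcript, had -0.36 (-0.37 to -0.34) in the WMI and 0.06 (0.02 to 0.10) in the control library. In the WMI library 2 of the 9 members compared lay above 0, with a median log2 ratio of -0.24 against 0.22 over all genes, and Malat1 made up 62.1% of the group. Within the marker classes the summed ratio went from -0.66 (-0.72 to -0.60) in astrocyte barcodes and -0.17 (-0.19 to -0.15) in those carrying several classes to 0.16 (0.12 to 0.19) in the excitatory class.

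**Figure D3:**
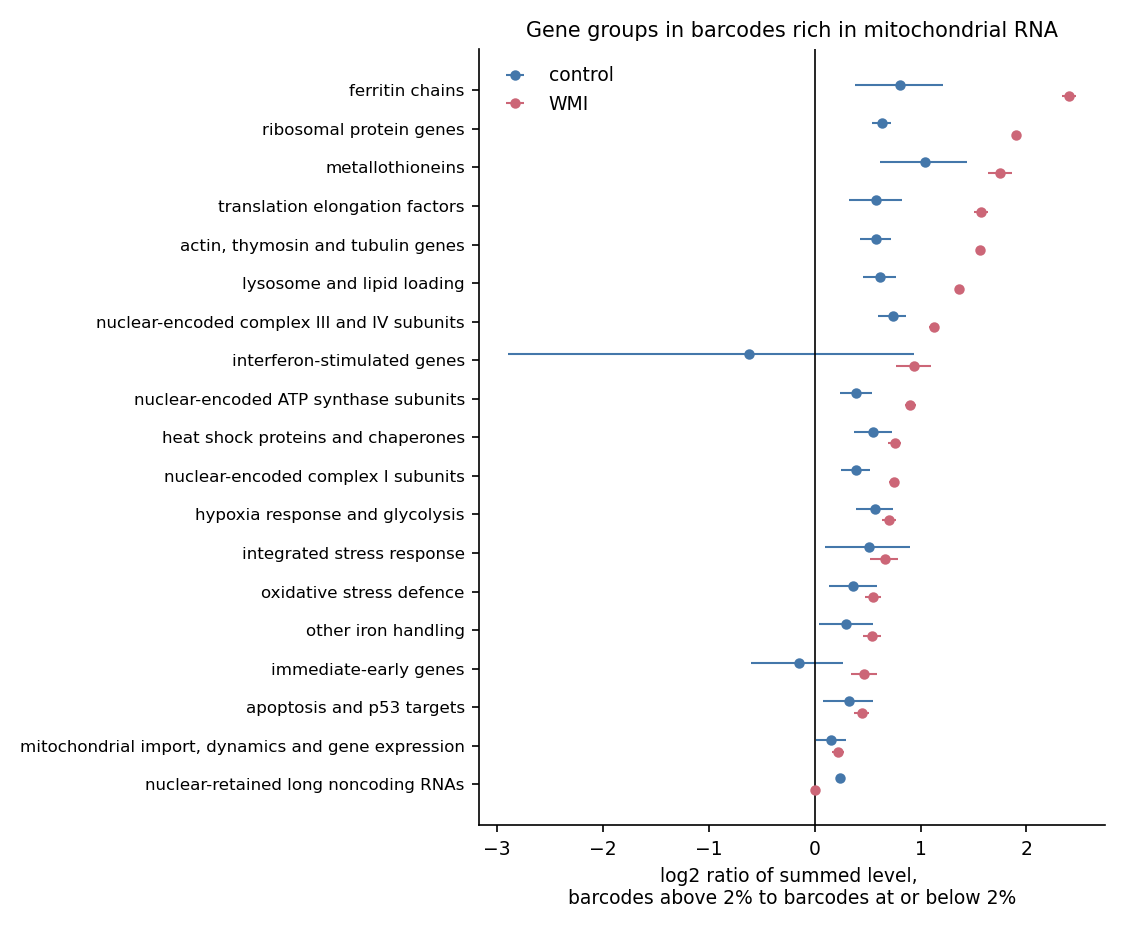
Log2 ratio of the summed level of each gene group between mito-rich barcodes and barcodes at or below 2% (x axis) in the control and WMI libraries, with exact 95% intervals that cover counting error only. WMI ratios range from 0.01 for nuclear-retained RNAs to 2.40 for ferritin, and control ratios lie lower for most groups, with wide intervals where UMIs were few.

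Among single genes, the 10 highest in the WMI library were Ftl1, Lgals1, Bnc2, Gng5, Tmsb4x, Rplp0, Rps4x, Rps19, Rpl32 and Tpt1. Tmsb4x, an actin-binding thymosin, had 614 and 124 CPM, a log2 ratio of 2.31 (2.24 to 2.38), against 0.40 (-0.01 to 0.78) in the control library. Lgals1, a galactose-binding lectin, had 56 and 170 UMIs and a log2 ratio of 2.52 (2.06 to 2.96). Bnc2, a zinc finger gene, had a log2 ratio of 2.44, but its 235 UMIs came from 18 barcodes, and 81 of them from 1 barcode. The 10 highest in the control library included Mobp, Mag, Mog and St18, genes of myelinating oligodendrocytes (OLs), with log2 ratios of 2.01, 1.93, 1.85 and 1.71. Creb5 and Rarb, both transcription factors, led that library at 2.25 and 2.24, but 31 of 78 and 37 of 50 UMIs came from 1 barcode, as did 48 of the 137 Mobp UMIs.

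When genes were ranked by the smaller of their ratios in the 2 libraries, the first was Gm42418, at chr17:39846958-39848788 (GRCm38), which RefSeq lists as a synonym of Rn18s-rs5, a sequence related to 18S ribosomal RNA. It had 2482 and 708 CPM in the control library, a log2 ratio of 1.81 (1.72 to 1.90), and 1448 and 366 CPM in the WMI library, 1.98 (1.94 to 2.03). It was found in 96 of the 97 mito-rich control barcodes and in 788 of the 877 mito-rich WMI barcodes. The others of this set were Cldn11, a tight junction gene of myelin, Chchd2, a mitochondrial protein, Tsc22d4, Rplp2, Rps15, Uqcr11, Cox4i1, Rpl37 and Cox6c, with log2 ratios from 1.14 to 1.52 in the control and from 1.24 to 1.89 in the WMI library. The genes lowest in both were mostly unnamed or antisense transcripts such as Gm26565, with 3 UMIs in mito-rich control and 40 in mito-rich WMI barcodes and log2 ratios of -3.11 (-5.38 to -1.56) and -1.05 (-1.54 to -0.60). L3mbtl4, a chromatin gene, had -1.52 (-2.65 to -0.59) and -0.92 (-1.19 to -0.67). Among the 10 lowest of the WMI library was Aldh1a1, a retinaldehyde dehydrogenase, with 13 and 908 UMIs and a log2 ratio of -2.0 (-2.92 to -1.22), while its control value was 0.03 (-1.10 to 0.96).

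The cell lineages present were read from marker lists. Each barcode was thinned to 800 non-mitochondrial UMIs, and it carried a list when at least 3 different genes of it remained. Pan-myeloid markers were carried by 144 (16.4%, 14.0 to 19.0%) of the mito-rich and 579 (7.97%, 7.35 to 8.61%) of the other WMI barcodes. Of the 97 mito-rich control barcodes, 0 carried them, which allows a share of up to 3.09% (3 barcodes of 97), against 79 (0.836%) of the others. Without thinning the WMI shares were 55.8% and 50.7%. At least 1 pan-myeloid UMI was held by 93.8% and 92.8% of barcodes, so myeloid RNA was found in nearly every droplet of this library. With thinning, homeostatic microglia markers were carried by 7.30% (5.67 to 9.22%) of mito-rich and 6.16% (5.62 to 6.74%) of other WMI barcodes, with overlapping intervals.

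A share of barcodes that should lack these genes gives the background. Pan-myeloid or homeostatic microglia markers were carried by 20.3% (17.7 to 23.1%) of all mito-rich WMI barcodes, and those that carried them had a median of 2652 UMIs. Among the 92 mito-rich WMI barcodes that carried excitatory neuron markers, 15.2% (8.58 to 24.2%) carried them too, with a median of 2564.5 UMIs. This interval overlaps that of all mito-rich barcodes, and so does the 18% (9.36 to 30%) among the 61 with astrocyte markers. Among the 270 with OPC or pre-OL markers, at a median of 3064 UMIs, 8.15% (5.18 to 12.1%) carried myeloid markers, with an interval below that of all mito-rich barcodes. The background thus depended on the markers used for it. Among the other WMI barcodes the values were 11.5% (10.7 to 12.2%) in all, with a median of 3004 UMIs in those that carried them, and 5.77% (4.32 to 7.54%) in those with excitatory markers, at 6441 UMIs. Those with OPC or pre-OL markers had 7.89% (6.55 to 9.40%), at 4462 UMIs, and those with astrocyte markers 4.07% (2.70 to 5.87%), at 4760 UMIs. With excitatory or astrocyte markers the background was thus also higher in mito-rich than in other barcodes, with intervals that did not overlap. With OPC or pre-OL markers the intervals overlapped. How much of the higher myeloid share of all mito-rich barcodes was background was not tested.

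All 12 pan-myeloid genes were at least 2-fold higher in mito-rich WMI barcodes, against the background of 6.88%, and 0 of the 12 were at 0. Their summed level was 1515 against 593 CPM, a log2 ratio of 1.35 (1.31 to 1.40), with Ly86 the most abundant at 15.9% of the list. Tyrobp, the myeloid signalling adaptor, had 1.90 (1.73 to 2.07), C1qa, which starts the complement cascade, 1.45 (1.34 to 1.55), and Ctss, a lysosomal protease, 1.15 (1.01 to 1.28). Within the control library the list had 170 against 128 CPM, a log2 ratio of 0.41 (0.06 to 0.73), with 2 of the 12 genes at 0 and none with enough UMIs to be compared. Homeostatic microglia genes had 1.09 (1.04 to 1.14) in the WMI and 0.17 (-0.10 to 0.44) in the control library. Within the myeloid class of the WMI library, described below, the pan-myeloid list had only 0.11 (0.04 to 0.19) and the homeostatic list -0.21 (-0.29 to -0.12). In barcodes that carried no list they had 1.57 (1.49 to 1.65) and 1.43 (1.34 to 1.53). Barcodes entered these classes by carrying or lacking the same lists, so these ratios are partly set by that choice. Genes of lysosome and lipid loading, led by the lipid carrier Apoe at 2536 against 945 CPM, had 1.36 (1.34 to 1.38) in the WMI and 0.61 (0.46 to 0.77) in the control library. A log2 ratio of 3.19 for border macrophage genes in the control library rested on 35 UMIs, 32 of them in 1 barcode.

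OL-lineage markers were carried by a larger share of mito-rich than of other WMI barcodes. OL precursor cell (OPC) markers were carried by 26.2% (23.3 to 29.3%) of mito-rich and 16.6% (15.8 to 17.5%) of other barcodes, and pre-OL markers by 13.6% (11.4 to 16.0%) and 7.62% (7.02 to 8.26%). Either list was carried by 30.8% (27.7 to 34.0%) of all mito-rich and 19.9% (19.0 to 20.8%) of all other WMI barcodes. Among those that carried excitatory neuron markers, 18.5% (11.1 to 27.9%) of mito-rich and 11.3% (9.28 to 13.6%) of other barcodes carried it too, at medians of 2564.5 and 6441 UMIs, and these background intervals overlap. The summed log2 ratios were 0.84 (0.82 to 0.86) and 1.04 (1.00 to 1.07), with Pdgfra, the growth factor receptor of OPCs, at 1.17 (0.98 to 1.36) and Bcas1, a marker of premyelinating OLs, at 1.34 (1.26 to 1.42). In the control library the OPC list went the other way, at -0.56 (-0.68 to -0.43), and was carried by 3 of 97 mito-rich barcodes (3.09%) against 8.32% of the others. Mature OL markers had 0.95 (0.90 to 1.00) in the WMI and 1.60 (1.51 to 1.70) in the control library, but in the control library 226 of their 867 UMIs were in 1 barcode. The list was carried there by 5 of 97 mito-rich barcodes (5.15%, 1.69 to 11.6%) and by 2.34% (2.04 to 2.66%) of the others, with overlapping intervals.

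Summed neuronal marker lists differed in direction in the WMI library. The pan-neuronal list had -0.36 (-0.38 to -0.34) and the excitatory list -0.23 (-0.27 to -0.19), whereas the inhibitory list had 0.41 (0.38 to 0.43), led by Erbb4. Of the members compared, 4 of 11 pan-neuronal, 6 of 12 excitatory and all 12 inhibitory genes lay above 0, with median log2 ratios of -0.06, 0.03 and 0.44. Within the WMI classes described below, the inhibitory list had -0.33 (-0.38 to -0.28) in the inhibitory class. It had -0.12 (-0.18 to -0.06) in the OPC or pre-OL class and -0.21 (-0.28 to -0.15) in barcodes carrying several classes. The ratios were 0.57 in barcodes that carried none, 0.60 in the astrocyte and 0.85 in the excitatory class, and the myeloid interval included 0. Barcodes entered a class by the lists they carried, the inhibitory list included, so these class ratios are partly set by that choice. Among control barcodes the summed log2 ratios were -0.03, -0.04 and 0.52, with medians over members of -0.02, -0.16 and 0.56. In the inhibitory list, 601 of the 11896 WMI and 445 of the 1705 control UMIs came from 1 barcode of each library. Pan-neuronal markers were nevertheless carried by 66.5% (63.2 to 69.6%) of mito-rich WMI and 87.6% (79.4 to 93.4%) of mito-rich control barcodes, against 63.9% and 75.9% of the others. Erythroid genes were lower in mito-rich WMI barcodes, at -1.10 (-1.34 to -0.88), with Hbb-bs, a beta globin gene, at 17.5 against 57.0 CPM, although 61 of the 164 UMIs of the list came from 1 barcode. The erythroid ratio was -4.87 (-6.08 to -3.88) in the myeloid class, from 8 and 1434 UMIs, and -0.54 (-0.84 to -0.27) in barcodes that carried none. It was 1.37 (0.20 to 2.35) in the excitatory class, from 9 and 102 UMIs, and the OPC or pre-OL and inhibitory intervals included 0. Summed over the list, astrocyte markers differed little, at -0.06 (-0.11 to -0.02) in the WMI and 0.07 (-0.04 to 0.18) in the control library. In the WMI library 6 of the 12 members compared lay above 0. The class ratios there ran from -0.91 (-1.08 to -0.75) in the astrocyte class to 0.77 (0.60 to 0.94) in the excitatory class. They too are partly set by the choice of classes, which used the astrocyte list.

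When barcodes were put into classes by the only list they carried, 117 (13.3%) of the mito-rich WMI barcodes were of the myeloid class, against 8.41% of the others, and 157 (17.9%) were of the OPC or pre-OL class, against 10.5%. Astrocyte and excitatory classes were smaller among mito-rich barcodes, at 2.28% against 5.96% and 5.59% against 8.90%. The inhibitory class had 6.5% and 5.49%, with overlapping intervals. Lists of several classes were carried by 19.4% (16.8 to 22.2%) of mito-rich and 12.2% (11.4 to 12.9%) of other barcodes. Another 303 mito-rich WMI barcodes (34.5%) carried none, 253 of them 1 gene short of a list, so the classes are ranges and not cell types. For the control library 56 of the 97 carried none, 13 were of the excitatory, 9 of the inhibitory and 6 of the astrocyte class. Doublets, droplets with more than 1 cell or nucleus, were predicted from simulated ones for 6.16% of mito-rich and 6.56% of other WMI barcodes, and for 22.7% of mito-rich and 7.48% of other control barcodes.

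**Figure D4:**
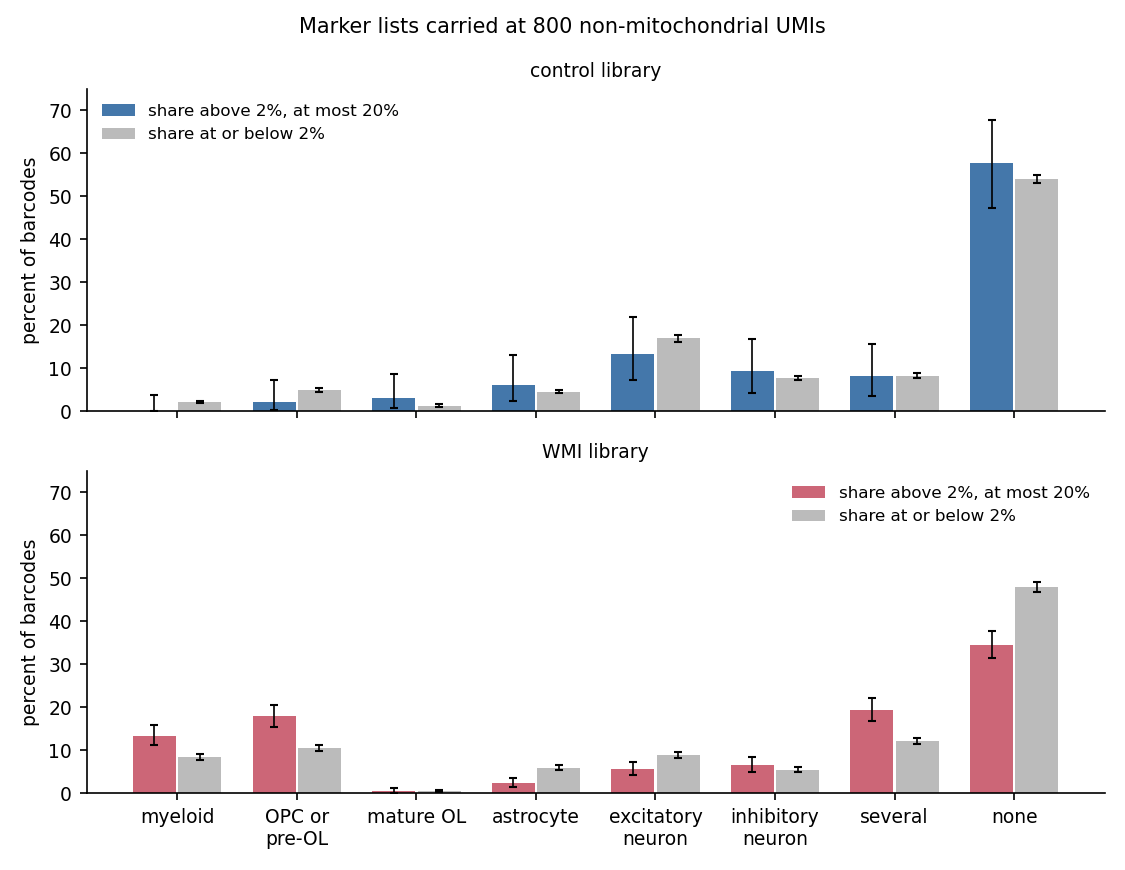
Percent of barcodes (y axis) by the class of marker list they carried at 800 non-mitochondrial UMIs (x axis), for mito-rich barcodes (coloured) and barcodes at or below 2% (grey) in the control (top) and WMI (bottom) library, with exact 95% binomial intervals. Among WMI barcodes the mito-rich bars are higher for the myeloid (13.3% against 8.41%) and OPC or pre-OL (17.9% against 10.5%) classes and lower for barcodes that carried none.

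The ribosomal protein and ferritin differences were present in every class of the WMI library that could be compared. The ribosomal protein log2 ratio was 0.96 (0.91 to 1.01) in the myeloid class, where the levels were 12318 and 6326 CPM. It was 1.21 (1.15 to 1.26) in the OPC or pre-OL class, 1.53 (1.43 to 1.62) in the excitatory, 1.71 (1.62 to 1.79) in the inhibitory and 1.97 (1.83 to 2.11) in the astrocyte class. Of the classes compared, myeloid barcodes had the highest level in both sets and the smallest ratio. Ferritin had a log2 ratio of 2.14 (1.97 to 2.31) in the myeloid class, with 1397 against 317 CPM, and ratios from 1.33 (0.93 to 1.71) in the excitatory class to 2.52 (2.37 to 2.68) in barcodes carrying several classes, with 2.25 (1.96 to 2.54) in the inhibitory class. Heat shock genes had 0.11 (-0.08 to 0.31) in the myeloid and 0.86 (0.62 to 1.09) in the excitatory class. Interferon-stimulated genes, at 0.93 (0.77 to 1.09) over all mito-rich WMI barcodes, had -0.07 (-0.39 to 0.23) in the myeloid, 0.09 (-0.45 to 0.58) in the OPC or pre-OL and 1.25 (0.52 to 1.92) in the inhibitory class.

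With the other WMI barcodes weighted to the class mix of the mito-rich barcodes, the ribosomal protein log2 ratio was 1.55 in place of 1.90 and that of ferritin 2.15 in place of 2.40. Without all barcodes that carried myeloid markers they were 1.77 and 2.07. On the control side the class with most barcodes that could be named, the excitatory class, had 152 and 16516 ribosomal protein UMIs and a log2 ratio of 1.13 (0.89 to 1.37), and the barcodes that carried none had 0.67 (0.55 to 0.80). The part of free RNA in these differences was not tested.

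**Figure D5:**
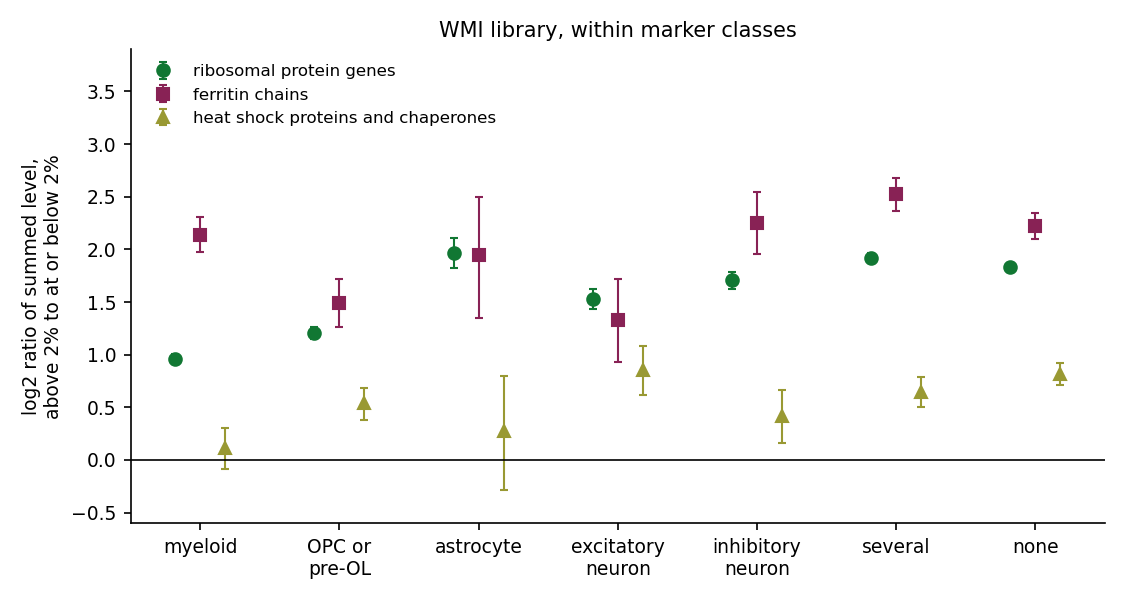
Log2 ratio of the summed level between mito-rich barcodes and barcodes at or below 2% of the WMI library (y axis) within each class of marker list (x axis), for ribosomal protein genes, ferritin chains and heat shock genes, with exact 95% intervals that cover counting error only. Ribosomal protein ratios run from 0.96 to 1.97 and ferritin ratios from 1.33 to 2.52, all above 0, while the heat shock intervals of the myeloid and astrocyte classes include 0.

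The libraries could also be set side by side within each set of barcodes. Among mito-rich barcodes the WMI to control log2 ratio was 1.70 (1.61 to 1.8) for ribosomal protein genes, 2.55 (2.14 to 2.98) for ferritin and 3.16 (2.83 to 3.51) for pan-myeloid genes. Among the other barcodes it was 0.44, 0.95 and 2.21. Of 7017 genes compared between mito-rich barcodes, 892 (12.7%) were at least 2-fold higher and 121 (1.72%) at least 2-fold lower in the WMI library. Among the other barcodes 1690 of 22999 (7.35%) and 926 (4.03%) were. Condition and library cannot be told apart here, since each condition had 1 library.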

How the data were processed

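Per the file headers and labels, the authors made the deposited counts with Cell Ranger 6.1.1 and used Seurat. The deposited values are whole UMI counts per gene and barcode, without normalization, for 55450 genes, 37 of them mitochondrial. The labels name mm9, but all 55450 identifiers and symbols matched GENCODE M21 (GRCm38). Depth per library is given above. Levels are summed UMIs scaled to 1000000 non-mitochondrial UMIs, and ratios carry exact conditional 95% intervals. A count of 0 was read as up to 3. Gene lists numbered 41, and 1 listed symbol was not found. The members and lists, and the classes with their 3-gene rule, were chosen with earlier results of these data known. Genes named are list members and the 10 highest and lowest per library and in both. Doublets were kept, and removing those predicted (0.8% per 1000 barcodes, 2 simulated per barcode, 30 components and 30 neighbours) was an alternative. The ratio and its interval were tested on simulated data. No test between conditions was made. Python 3.11.15, numpy 2.4.6, scipy 1.17.1 and scikit-learn 1.9.0 were used.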

Additional observations from a re-analysis of the deposited data

Results flagged for a closer look

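4 marker lists lay on opposite sides of 0 in the 2 libraries, with intervals that excluded 0 in each, and the difference between the libraries was not tested. OPC genes had a log2 ratio of mito-rich to other barcodes of -0.56 in the control and 0.84 in the WMI library. Genes of striatal projection neurons had summed ratios of 0.27 and -0.076 (-0.13 to -0.02). In the WMI library, however, 5 of the 8 members compared lay above 0, with a median log2 ratio of 0.15. In the control library 111 of the 422 mito-rich UMIs of this list came from 1 barcode. Genes of pericytes and smooth muscle had -2.45 (-5.49 to -0.59) and 0.77 (0.55 to 0.99), and the control value rested on 2 UMIs. Cycling genes had -1.37 (-3.24 to -0.01) and 0.95 (0.73 to 1.16), and the control value rested on 4 UMIs.

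Outside the barcodes described, among the 208 WMI barcodes that failed the minima of UMIs or genes, 7 (3.37%, 1.36 to 6.81%) had a mitochondrial share above 2% and at most 20%. Of the 739 control barcodes that failed, 0 did, which allows a share of up to 0.406% (3 barcodes of 739).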

How the results depend on the processing

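Of 174 values computed under other settings for 18 results, 112 differed from the reported value by no more than its interval or limit, 61 by more, and 1 went the other way. All 66 values of the ribosomal protein, ferritin and heat shock groups stayed above 0. The cause of a difference was not tested.

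With a lower limit of 1%, 2.38% of control and 25.8% of WMI barcodes were mito-rich, the depth ratio was 1.01 in the control library, which reversed it, and 0.608 in the WMI library, and 68 control genes were at least 2-fold higher. The log2 ratios were 0.32 (ribosomal protein genes) and 0.27 (heat shock) in the control and 1.39, 1.74 (ferritin) and 0.58 in the WMI library, and pan-myeloid markers were carried by 13.1% of mito-rich WMI barcodes. With a lower limit of 5%, the shares were 0.367% and 2.11% (a ratio of 5.76) and the depth ratios 0.690 and 0.445. Of the genes then compared, 17 of 1726 control and 385 of 6334 WMI genes were higher, and 71 and 123 were lower. The ratios were 1.08 for ribosomal protein genes in the control and 2.34, 3.03 and 1.09 in the WMI library, where 8.69% of other barcodes carried pan-myeloid markers. With a minimum of 2000 UMIs, the WMI share was 9.43%, the depth ratios 0.694 and 0.561, the WMI ribosomal ratio 1.84 and pan-myeloid carriage among other WMI barcodes 6.99%. Without mt-Rnr1 and mt-Rnr2 in the share, the shares were 0.764% and 7.23%, the WMI depth ratio 0.556, and the ribosomal ratios 0.74 and 1.49, with 1.68 for WMI ferritin.

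As a mean over barcodes, the ribosomal, ferritin and heat shock ratios were 0.27, 0.24 and 0.24 in the control and 1.62, 2.12 and 0.57 in the WMI library. Scaled to all UMIs the WMI ribosomal ratio was 1.85, and without predicted doublets 1.86. With the scaling to all UMIs, 78 control genes were higher and 129 lower. With 20 expected UMIs, 36 control genes were higher and 20 lower, and 53 WMI genes lower, since fewer genes were compared. Pan-myeloid markers were carried by 5.77% of other control, 55.8% of mito-rich and 50.7% of other WMI barcodes without thinning, and by 2.45%, 32.5% and 17.3% when 2 genes sufficed.

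3 alternatives were chosen after seeing the data. With equal class shares the WMI ratios were 1.55, 2.15 and 0.61. Without barcodes that carried myeloid markers, the WMI share was 9.80%, the depth ratio 0.489, and the ribosomal and ferritin ratios 1.77 and 2.07. Without barcodes that carried several classes, the WMI share was 9.97%, the depth ratio 0.507, and the ribosomal and ferritin ratios 1.8 and 2.27. Pan-myeloid markers were then carried by 13.2% and 6.80% of mito-rich and other WMI barcodes.

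No paired analysis was possible because each condition had 1 library, and for the same reason no replicate was left out. The control values rest on 97 barcodes, so single control genes below 10 expected UMIs were not counted as 2-fold higher or lower.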
